A study of Mus musculus with 42 samples.

Results

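The genes described here are 9 mouse genes that mark Paneth cells or were read with them in these colon libraries: *Lyz1*, *Mmp7*, *Mptx2*, *Itln1*, *Defa17*, *Defa21*, *Defa22*, *Defa24* and *Defa42*. They were taken by symbol from each of 9 deposited tables, which together list 20449 genes, and were read library by library in all 42 libraries of 14 groups. They were chosen by their measured levels, as the tumors, one library of proximal WT crypts or both held each at levels that the other libraries did not (for *Mmp7* and *Itln1* the tumors alone), so their levels in proximal crypts and in tumors are given as a description and carry no test. The mice had a C57/BL6 background and an age of 8 weeks or more. *Mtg16-/-* mice and mice homozygous for the P209T point mutation (*Mtg16T/T*), which weakens the binding of MTG16 to E proteins, were kept as independent colonies from heterozygous crosses, and each had WT littermates as controls.

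Crypts at baseline were taken within 5 cm of the cecum (proximal; 2 libraries each of WT and *Mtg16-/-* mice of the null colony and 2 each of WT and *Mtg16T/T* mice of the T/T colony) or within 5 cm of the anus (distal; 4 WT and 4 *Mtg16-/-*, then 3 WT and 4 *Mtg16T/T*). Regenerating distal crypts came from mice given 2% dextran sulfate sodium (DSS), a chemical that injures the colon lining, for 5 days and water for 4 days (3 WT and 4 *Mtg16-/-*, then 3 WT and 3 *Mtg16T/T*). Distal tumors came from mice of the T/T colony given 10 mg/kg azoxymethane (AOM), a carcinogen, and 3 cycles of 3% DSS (4 days of DSS and 16 of water per cycle), with 3 WT and 3 *Mtg16T/T* libraries. Tumors were homogenized whole, whereas crypts were shaken free by chelation, so tumor libraries also hold stroma and immune cells. Fewer cells of a type and less RNA per cell cannot be told apart in such bulk samples. The mutations are present in all cells of these mice and not in the epithelium alone.

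Paneth cells sit at the base of crypts in the small intestine, beside the stem cells. They store and secrete antimicrobial proteins and are rare or absent in the healthy mouse colon. *Lyz1* encodes the lysozyme of Paneth granules, which cuts bacterial cell walls. Most *Defa* genes encode alpha-defensins (cryptdins), small peptides that pierce microbial membranes. *Mmp7* encodes matrilysin, the protease that cuts the precursors of these peptides into active forms in mouse Paneth cells. *Itln1* encodes intelectin 1, a lectin that binds microbial sugars and is made by Paneth and goblet cells, and *Mptx2* encodes a pentraxin-like protein that marks Paneth cells. MTG16 is a corepressor that restrains E protein transcription factors, partners of the bHLH factors that direct secretory cell fate.

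The genes lie in 4 places of build GRCm38. *Itln1* (ENSMUSG00000038209.12; 8 exons) lies on chromosome 1 from 171518122 to 171535294 and *Mptx2* (2 exons) from 173274382 to 173277777 of the same chromosome, both on the minus strand. The 5 defensin genes lie in a cluster on chromosome 8, with *Defa21* from 21025545 to 21026516, *Defa22* from 21162277 to 21163249, *Defa42* from 21455445 to 21456560, *Defa17* from 21655780 to 21656735 and *Defa24* from 21734494 to 21735471. *Mmp7* (6 exons) lies on chromosome 9 from 7692090 to 7699585 and *Lyz1* (4 exons) on chromosome 10 from 117287797 to 117292868. The counts are sums over all exons of a gene, untranslated parts included.

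Most of the defensin genes are near copies, and this bounds what a count of one of them means. Of the words of 31 bases in the transcripts of *Defa17*, 6.8% occur in no other annotated gene, against 8.2% for *Defa22*, 16.0% for *Defa21*, 42.9% for *Defa24* and 0.0% for *Defa42*. For the other members the share was 65.8% (*Lyz1*), 74.9% (*Mptx2*), 96.1% (*Itln1*) and 100% (*Mmp7*). The coding sequences of *Defa17* and *Defa3* were identical, those of *Defa21* and *Defa22* differed at 2 of 282 bases, and the whole 488-base transcript of *Defa42* lies inside the 506-base transcript of *Defa43*. *Lyz1* and the macrophage gene *Lyz2* differed at 22 of 447 coding bases. Reads of such pairs are split by estimate, so single defensin rows are uncertain and the sum of all *Defa* rows is given beside them.

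The last 120 coding bases, which hold most of the mature peptide, show how near the copies are. Capitals mark the bases that differ from the partner named; *Defa24* and *Defa17* are set against each other and differ at 8 of these bases, and *Defa21* and *Defa22* at 1. *Defa42* has no capitals because *Defa43* has the same bases.
Defa24: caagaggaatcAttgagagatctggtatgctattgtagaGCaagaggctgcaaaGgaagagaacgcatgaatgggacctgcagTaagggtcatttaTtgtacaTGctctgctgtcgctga
Defa17: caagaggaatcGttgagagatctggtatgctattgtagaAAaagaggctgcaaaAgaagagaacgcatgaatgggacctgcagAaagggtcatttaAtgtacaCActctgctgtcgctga
Defa21: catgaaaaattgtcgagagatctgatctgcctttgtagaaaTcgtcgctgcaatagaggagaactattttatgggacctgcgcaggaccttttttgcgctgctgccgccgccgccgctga
Defa22: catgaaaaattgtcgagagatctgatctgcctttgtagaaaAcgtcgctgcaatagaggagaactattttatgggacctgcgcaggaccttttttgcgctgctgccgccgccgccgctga
Defa42 and Defa43: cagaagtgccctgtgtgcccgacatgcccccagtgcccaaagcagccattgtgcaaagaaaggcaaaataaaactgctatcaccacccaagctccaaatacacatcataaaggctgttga

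Most defensin rows were above 0 in the same 7 libraries, so the 250 bases before their starts were searched on both strands for TATAAA (the TATA box), CTTTGA (a core of the sites that TCF factors of the WNT pathway bind) and CANNTG (the E box, to which E proteins bind). Of 16 *Defa* windows in RefSeq's table (GRCm38.p6), 15 held TATAAA, 13 CTTTGA and 15 CANNTG, whereas 12.4%, 13.8% and 66.2% of 32851 windows of all genes did. The windows of near copies are not independent of each other. No site was tested for binding, and a match of letters is a description only. Of the 9 genes, 7 had a window. The windows of *Lyz1*, *Itln1* and *Mptx2* held neither TATAAA nor CTTTGA. *Mmp7* had an upstream window with TATAAA and a downstream window with CTTTGA but no TATAAA. The 110 bases before RefSeq's start are shown for *Defa21*, *Defa42* and the upstream window of *Mmp7*, with TATAAA and CTTTGA (or its complement TCAAAG) in capitals. *Defa22* has the same 110 bases as *Defa21*, and *Defa43* the same as *Defa42*.
Defa21 (chr8:21025435-21025544, plus strand): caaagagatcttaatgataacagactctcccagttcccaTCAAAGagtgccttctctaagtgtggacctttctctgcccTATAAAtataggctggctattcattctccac
Defa42 (chr8:21456518-21456627, minus strand): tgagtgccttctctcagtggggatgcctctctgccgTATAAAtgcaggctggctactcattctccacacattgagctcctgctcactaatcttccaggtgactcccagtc
Mmp7 (chr9:7691980-7692089, plus strand): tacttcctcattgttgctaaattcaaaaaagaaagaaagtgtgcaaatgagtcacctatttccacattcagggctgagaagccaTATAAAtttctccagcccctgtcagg

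The values are the authors' normalized counts, that is, reads per gene divided by a size factor for each library, set separately in each table. To set libraries of different tables side by side, a gene's normalized count was divided by the library's total of normalized counts and multiplied by 1000000, and this share is given as CPM. Libraries from which whole reads could be recovered held 32231389 to 74661922 reads assigned to genes. A library without a read of a gene was compared through a floor of 3 reads. The targeted gene *Cbfa2t3* (the official symbol of *Mtg16*) ran from 424 to 1095 normalized counts in distal *Mtg16-/-* and from 1027 to 1809 in distal WT crypts, and from 427 to 596 against 1845 to 2519 after DSS. In *Mtg16T/T*, where the gene carries a point mutation and its level does not check the label, it ran from 2529 to 2988 against 2034 to 2049 in WT in proximal crypts, from 1509 to 2196 against 937 to 1040 in distal crypts and from 1641 to 1931 against 1115 to 1475 in tumors, above WT without overlap, and overlapped after DSS (2956 to 3125 against 2244 to 3126).

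One library, labelled distal *Mtg16-/-* replicate 2, went against its label. Its *Hoxd13*, a homeobox gene of the hindgut end, was at 0 CPM, where the 14 other distal baseline libraries had 74.6 to 149 and all 8 proximal libraries were at 0 or did not list it. Its *Prap1*, high in proximal crypts here, was 42.7 CPM, against 35.5 to 80.0 in the proximal libraries. Its *Cbfa2t3* count of 1095 was the highest of its group and above 1 of the 4 WT libraries. The limma differences of members that rest on it are given with and without it. Its values stay in the edgeR results and, unless stated, in group medians, means and ranges. The other library that stood apart, proximal WT replicate 2 of the T/T colony, is described first.

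In that proximal WT library all 24 *Defa* rows of the table of WT segments were above 0, with 3291 reads in all, or 69.9 CPM. The sister library, proximal WT replicate 1 of the same colony and with the same opening number in its library code (5582), had no *Defa* read, which puts the former at least 1050-fold higher than the sister's floor. *Defa24* had 487 normalized counts in this library, *Defa21* 242, *Defa22* 205, *Defa17* 80.9 and *Defa42* 74.4, and each of these 5 rows was at 0 in the sister library and in both proximal *Mtg16T/T* libraries. *Mptx2* followed the same pattern, with 48.3 normalized counts in this library and 0 in the 3 others.

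*Lyz1* was 623 normalized counts in the library, against 4.02 in its sister and 5.29 and 3.02 in the *Mtg16T/T* libraries. *Mmp7* did not set it apart in the same way: it had 701 there and 529 in the sister, with 161 and 141 in *Mtg16T/T*. *Itln1* had 547 there, 313 in the sister, and 291 and 193 in *Mtg16T/T*. The library was thus the highest of its table for all 9 genes. For *Mmp7* and *Itln1* it still lay within the range of the proximal WT libraries, since 1 WT library of the null colony had 24.3 CPM of *Mmp7* and another 18.0 of *Itln1*, against 16.0 and 12.5 here.

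Genes of small-intestinal enterocytes were high in the same library. Of 23 such genes listed, 14 were above all 7 other proximal libraries and 8 were the highest of the 42 libraries, where 10.6% and 1.06% of 18150 genes above 0 in a proximal library were. The margin was narrow for some of the 14, as for *Lct* with 0.212 against at most 0.201 CPM. *Anpep*, a brush-border peptidase, was 132 CPM (3.70 to 5.72 in the other proximal libraries), and *Sis*, the sucrase-isomaltase of the small intestine, was 23.9 (2.53 to 6.40). *Apoa1*, an apolipoprotein of lipid-absorbing enterocytes, was 12.1 (0 to 0.202), and *Gata4*, a factor of the upper small intestine, was 2.08 (0.216 to 0.823). *Fabp6*, the bile acid binding protein of the ileum, was 42.4 (3.49 to 8.29), but was higher in distal WT replicate 3 of the null colony (74.3) and in distal *Mtg16-/-* replicate 3 (48.3), which held 1 and 0 *Defa* reads. Not all of the list moved: *Slc10a2*, the bile acid transporter of the ileum, was 120 CPM within a range of 90.7 to 201, and *Fabp2* was 348 within 260 to 436. *Mttp* was 15.3 (2.19 to 4.74) and *Apoa4* 0.998 (at 0 or not listed in the others). Genes high in distal crypts here also stood above the other proximal libraries. *Hoxb13* was 5.69 CPM (0 to 0.716 in the others) and *Atp12a* 3.06 (0.0205 to 1.13). Macrophage genes, in sum, were 82.7 CPM in this library, against 78.3 in the sister.

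**Figure D1:**
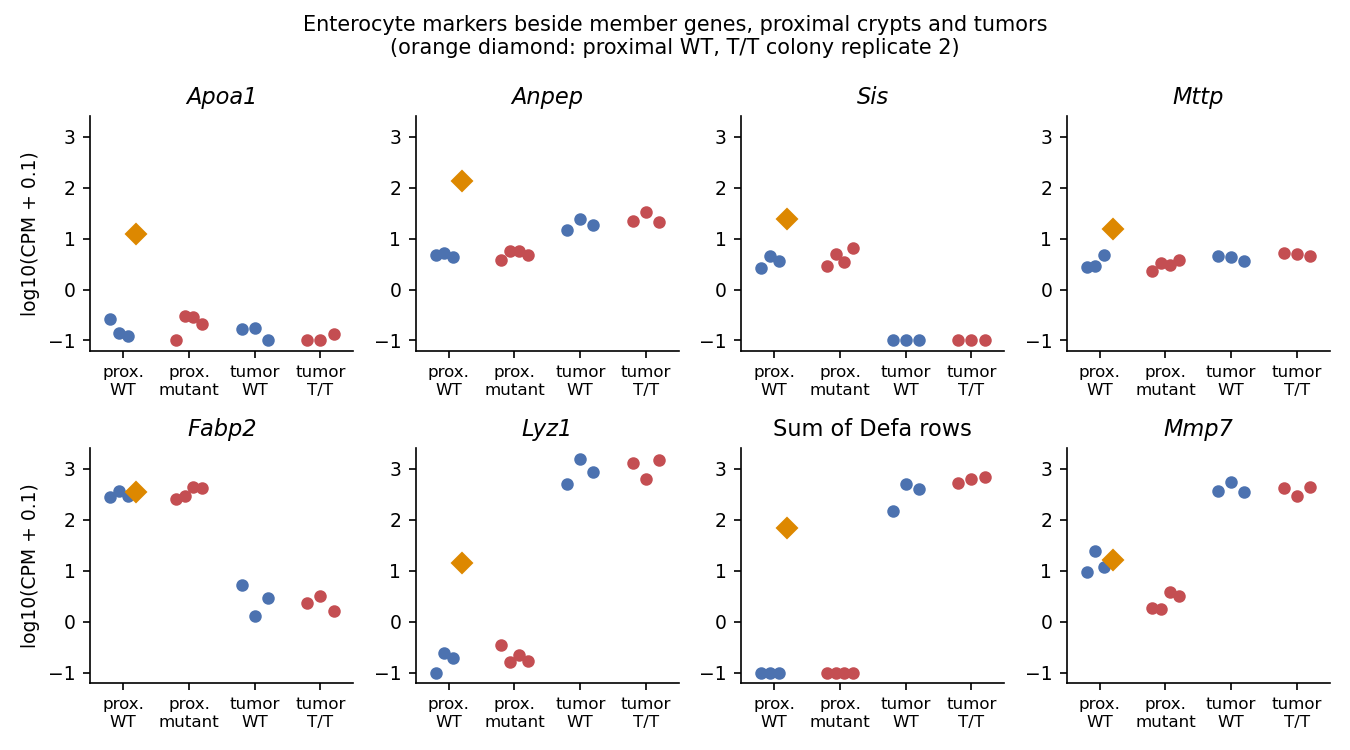
Shares of 5 enterocyte genes and of *Lyz1*, the sum of *Defa* rows and *Mmp7*, on a log10 scale of CPM plus 0.1, with 1 point per library for proximal WT crypts (4), proximal mutant crypts (4), WT tumors (3) and *Mtg16T/T* tumors (3). The orange diamond, proximal WT replicate 2 of the T/T colony, lies above the other proximal libraries for *Apoa1*, *Anpep*, *Sis*, *Mttp*, *Lyz1* and *Defa*, whereas the tumors lie above it for *Lyz1*, *Defa* and *Mmp7* and below it for *Apoa1*, *Anpep*, *Sis*, *Mttp* and *Fabp2*, with *Sis*, which the tumor table does not list, drawn at 0.

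In the AOM/DSS tumors the same defensins were present without that enterocyte pattern. The sum of *Defa* rows was 149, 507 and 407 CPM in the 3 WT tumors and 521, 621 and 701 in the 3 *Mtg16T/T* tumors, resting on 6872 to 44039 reads. All 6 tumors were above the proximal library, from 2.13-fold to 10.0-fold. The lowest tumor was at least 1890-fold higher than the floor of distal WT crypts of the same colony. Of the 26 *Defa* rows in the table, 20 were above 0 in every tumor. *Apoa1* reached 0.0735 CPM in tumors, *Fabp6* ran from 0.275 to 2.19, *Fabp2* from 1.19 to 5.03, while *Sis*, *Apoa4* and *Apoc3* were not listed in the tumor table, which leaves out genes with at most 1 count over its libraries. *Anpep*, at 14.8 to 32.5 CPM, was below the proximal library but above the other crypts.

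Ratios within a library, which do not depend on its scaling, also set the tumors apart from the proximal library. *Lyz1* was 0.993 to 3.36 times the *Defa* sum in the tumors and 0.204 times in the proximal library. *Mmp7* was 0.479 to 2.50 times the sum in tumors and 0.229 times there. *Itln1* was 0.312 to 0.784 times the sum in tumors and 0.179 times there. *Habp2*, a serine protease gene, was 0.0521 to 0.190 times the sum in tumors and 0.000608 times in the proximal library, while *Apoa1* was at most 0.000437 times in tumors and 0.173 times there. *Mptx2*, with 0.0013 to 0.0254 against 0.0158, and *Ang4*, a Paneth and goblet cell ribonuclease, with 0.193 to 1.48 against 0.360, overlapped.

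The make-up of the defensin signal differed as well. *Defa24* made up 20% to 30.1% of the sum in tumors and 15.9% in the proximal library, and *Defa3* 15.5% to 19.9% against 8.84%. *Defa21* went the other way, with 1.21% to 2.11% in tumors and 7.90% in the proximal library, as did *Defa22*, with 2.42% to 3.59% and 6.72%. *Defa17* had 2.64% to 4.29% in tumors and 2.64% there. *Defa39*, *Defa29* and *Defa38* had 2.31%, 1.94% and 0.972% of the sum in the proximal library and at most 0.019%, 0.0569% and 0.0381% in a tumor. These rows have coding sequences of 351 bases, as *Defa42* and *Defa43* do. The 5 member rows held 28.1% to 38.5% of the sum in tumors and 35.6% in the proximal library. These shares rest on 6 tumors and 1 library, so the difference between them has no replicate on the crypt side and no test.

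**Figure D2:**
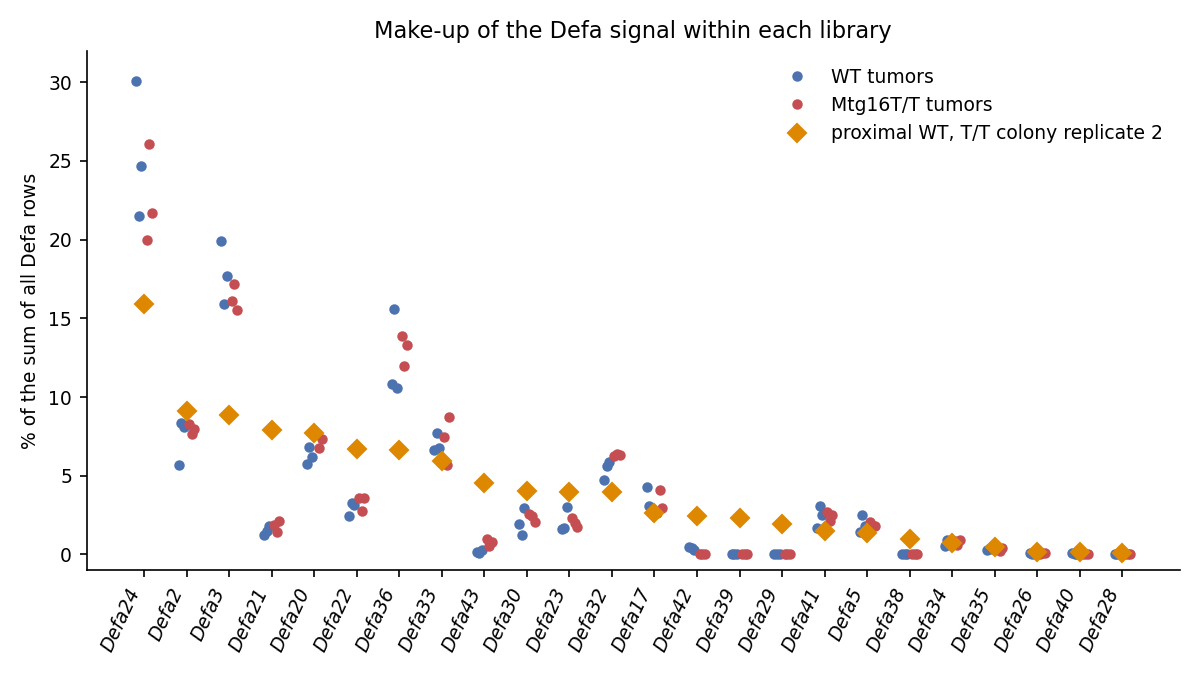
Percent of the sum of all *Defa* rows that each of 24 rows held, in 3 WT tumors, 3 *Mtg16T/T* tumors and the proximal WT library (orange diamond), ordered by that library. Tumors lie above the diamond for *Defa24*, *Defa3* and *Defa36* and below it for *Defa21*, *Defa22*, *Defa43* and *Defa39*.

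The tumor libraries were otherwise of distal origin and of mixed cell types, as sampled. *Hoxd13* was 159 to 194 CPM in all 6, and the epithelial gene *Epcam* 1580 to 1890 (1110 to 2260 in crypts). Macrophage genes summed to 567 to 1030 CPM in tumors and 56.1 to 365 in crypts, neutrophil genes to 175 to 1210 and 2.26 to 293, and fibroblast genes to 2630 to 3610 and 0.5 to 78.7. *Lyz2*, the near copy of *Lyz1* made by macrophages, was 175 to 411 CPM in tumors and 0.689 to 85.4 in crypts, against 500 to 1530 for *Lyz1* in tumors. The part of these cells in the levels of the 9 genes was not tested. Of 10 pancreatic acinar genes, 6 were at 0 or not listed in the tumors of each genotype. Tumors and crypts also differ in how tissue was taken and in the opening number of the library code, and these cannot be told apart from the disease.

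Other genes of Paneth cells were read in the same tumors. The 11 Paneth products that are not members summed to 1040 to 1850 CPM in tumors, 4720 to 15300 in proximal crypts and 370 to 3580 in 27 distal crypt libraries, and the library labelled distal *Mtg16-/-* replicate 2 had 5590. Most of the sum in proximal crypts was *Reg3b* and *Reg3g*, antimicrobial lectins that enterocytes also make. Without these, the other 9 summed to 902 to 1730 in tumors, 536 to 1310 in proximal crypts and 358 to 1610 in those 27 distal libraries, so the ranges overlapped. The regulators summed to 1310 to 1500 CPM in tumors, within the 994 to 1680 of crypts. Single genes did differ. *Habp2* was 26.7 to 60.0 CPM in tumors and at most 0.781 in the 36 crypt libraries. *Wnt3*, the WNT ligand that Paneth cells supply to stem cells, was 2.65 to 6.49 in tumors and 0.029 to 0.522 in crypts, and *Pnliprp2*, a lipase, 65.6 to 224 and 0.578 to 5.69. *Sox9*, a factor needed for Paneth cells, was 116 to 177 in tumors and 38.0 to 85.5 in crypts, without overlap. *Egf*, with 1.18 to 2.42 in tumors and 1.77 to 9.08 in crypts, and *Dll1*, with 10.3 to 15.1 and 9.40 to 33.0, did not share this order. Of the other matrix metalloproteinases, *Mmp10* (187 to 329 CPM in tumors, at most 1.07 in crypts) and *Mmp13* (226 to 518 and at most 5.35) were also high, so that *Mmp7*, with 298 to 554, was not alone in its family. Goblet genes went the other way, summing to 1640 to 9310 CPM in tumors and 6340 to 23700 in crypts.

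The sequence of levels among the 9 genes in tumors is given per kilobase of transcript, since longer transcripts collect more reads. Full annotated lengths were used with no correction for fragment length, which matters most for short transcripts such as those of the defensins. Single defensin rows are also uncertain, so their places relative to the other genes are a rough guide only. In WT tumors the medians were 693 CPM per kilobase for *Lyz1*, 349 for *Mmp7*, 240 for *Defa24*, 135 for *Itln1*, 30.4 for *Defa22*, 29.9 for *Defa17*, 17.3 for *Defa21*, 2.54 for *Defa42* and 1.67 for *Mptx2*. The WT ranges of *Lyz1* (396 to 1210) and *Mmp7* (332 to 518) overlapped, as did those of *Defa24* (107 to 260) and *Itln1* (102 to 182) and of *Defa17*, *Defa21* and *Defa22*. *Mptx2*, at 0.833 to 1.72, overlapped *Defa42*, at 1.38 to 4.06. In *Mtg16T/T* tumors the medians kept the same order at the top, with 1020 for *Lyz1*, 387 for *Mmp7*, 362 for *Defa24* and 170 for *Itln1*, and *Mptx2* was at 9.94.

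Between tumor genotypes *Lyz1*, *Mmp7* and *Itln1* did not separate. *Lyz1* had 24290, 73340 and 43790 normalized counts in WT and 62630, 29940 and 70260 in *Mtg16T/T* tumors, a log2 difference of 0.25 (SE 0.445). *Mmp7* had 18110, 26550 and 17750 in WT and 20060, 14450 and 20380 in *Mtg16T/T*, a difference of -0.18. *Itln1* had 5674, 9972 and 7710 in WT and 8117, 9413 and 13270 in *Mtg16T/T*, a difference of 0.41. In each of these genes the genotypes overlapped.

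*Mptx2* showed the widest gap of the 8 members listed above 0 in both genotypes. It had 64.3, 31.7 and 68.3 normalized counts in WT tumors and 312, 766 and 375 in *Mtg16T/T* tumors, a log2 difference of 3.08 without overlap, with means of 54.8 ± 20.1 and 484 ± 246 (SD, n = 3 each). *Mptx1*, its near copy that differs at 53 coding bases, varied more, with 3023, 140 and 172 in WT and 7626, 22930 and 1527 in *Mtg16T/T*. The part of *Mptx1* reads in the *Mptx2* count was not tested.

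The defensins were higher in most *Mtg16T/T* tumors, and 1 WT tumor was far below the rest. *Defa24* had 2180, 5233 and 5023 normalized counts in WT and 5055, 7856 and 7209 in *Mtg16T/T*, a log2 difference of 0.77 with overlap in 1 pair of tumors. *Defa17* had 311, 753 and 595 in WT and 668, 1226 and 976 in *Mtg16T/T* (0.84). The genotypes did not overlap for *Defa21*, with 87.4, 364 and 362 in WT and 473, 428 and 703 in *Mtg16T/T* (1.21), or for *Defa22*, with 175, 792 and 638 and then 908, 842 and 1189 (1.12). WT replicate 1 was the lowest of the 6 tumors for all 4 of these genes, and without it the differences were 0.36 (*Defa24*), 0.47 (*Defa17*), 0.53 (*Defa21*) and 0.45 (*Defa22*). Goblet genes summed to 1640 to 4590 CPM in WT and 3170 to 9310 in *Mtg16T/T* tumors, and *Ang4* had 6155, 7985 and 3925 normalized counts in WT and 22140, 44670 and 12040 in *Mtg16T/T*, without overlap. Their part in the defensin and *Mptx2* values was not tested.

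Summed over all *Defa* rows, the WT tumors had 7238, 24300 and 20370 normalized counts and the *Mtg16T/T* tumors 25250, 30140 and 33260, a log2 difference of 0.94. Without WT replicate 1 it was 0.4. Of the 26 rows, 10 had every *Mtg16T/T* tumor above every WT tumor, 1 had the reverse and 15 overlapped. Among the 20 *Defa* rows with a mean of at least 10, these counts were 9 and 1, where 2.98% of 15900 genes had every *Mtg16T/T* tumor above every WT tumor and 2.53% the reverse. The rows share sequence and library, so they are not separate measurements, and limma called 0 genes of any kind between tumor genotypes (0.0% of 15900; 392 had an unadjusted p under 0.05). The tumors were not compared with edgeR or DESeq2 here. With DESeq2 the paper reports genes that differ between these tumors, among them *Fzd9*, so the limma count does not show that no gene differs.

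*Defa42* was the row with the reverse order, with 32.7, 95.1 and 62.1 normalized counts in WT and 0 in all 3 *Mtg16T/T* tumors. Its partner *Defa43*, from which it cannot be told by sequence, had 13.7, 26.4 and 60.5 in WT and 250, 154 and 267 in *Mtg16T/T*. Added together, the pair had 46.3, 122 and 123 in WT and 250, 154 and 267 in *Mtg16T/T*, so the sum went the way of the other defensins. The value of *Defa42* alone therefore rests on how shared reads were split.

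**Figure D3:**
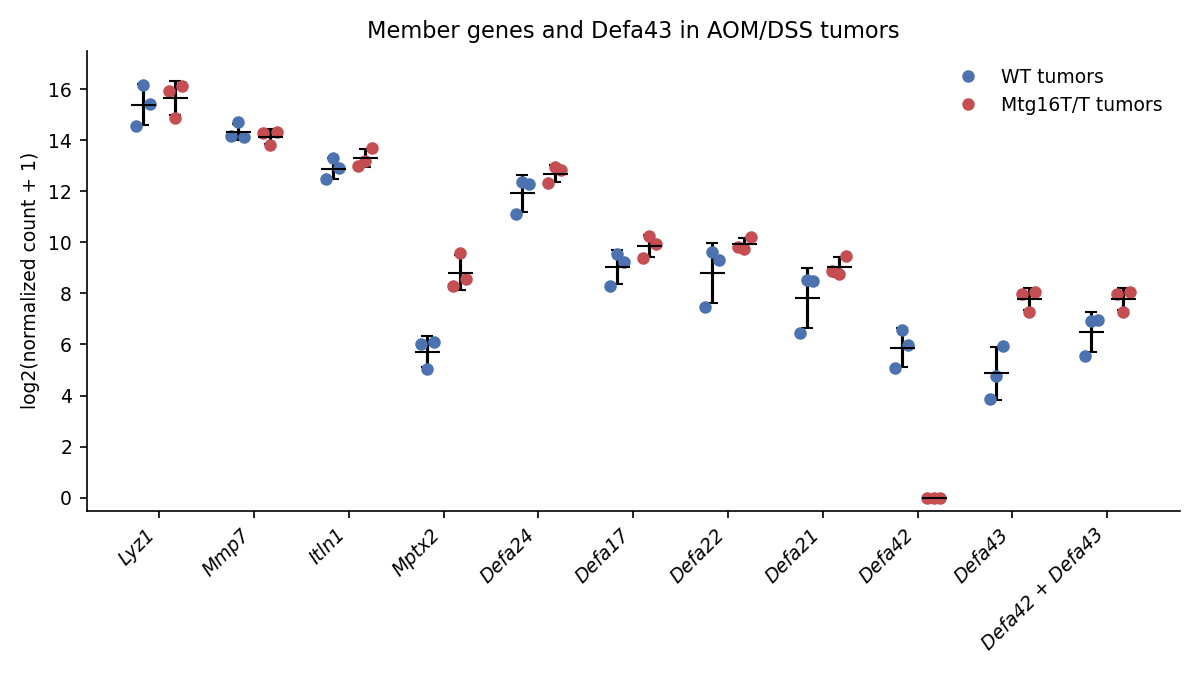
Log2 of the normalized count plus 1 of the 9 genes, of *Defa43* and of *Defa42* and *Defa43* added, in 3 WT and 3 *Mtg16T/T* tumors, with points for libraries, a bar for the mean and whiskers for 1 SD. *Mptx2*, *Defa21* and *Defa22* do not overlap between genotypes, and *Defa42* is at 0 in *Mtg16T/T* while its sum with *Defa43* is not.

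Outside the tumors and the proximal WT library, defensins were at or under the floor. Of the 35 other libraries, 32 had no *Defa* value above 0 in any table. After DSS, *Mtg16-/-* replicate 2 (0.0348 CPM) and *Mtg16T/T* replicate 2 (0.058 CPM) held 2 *Defa* reads each. At baseline, distal WT replicate 3 of the null colony held 1 *Defa* read (0.0145 CPM), and also 1 read of *Mptx2*. All 3 libraries were below the 3 reads of the floor. The members that could be followed in crypts were thus *Lyz1*, *Mmp7* and *Itln1*, and the other 6 were not detectable there at this depth.

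**Figure D4:**
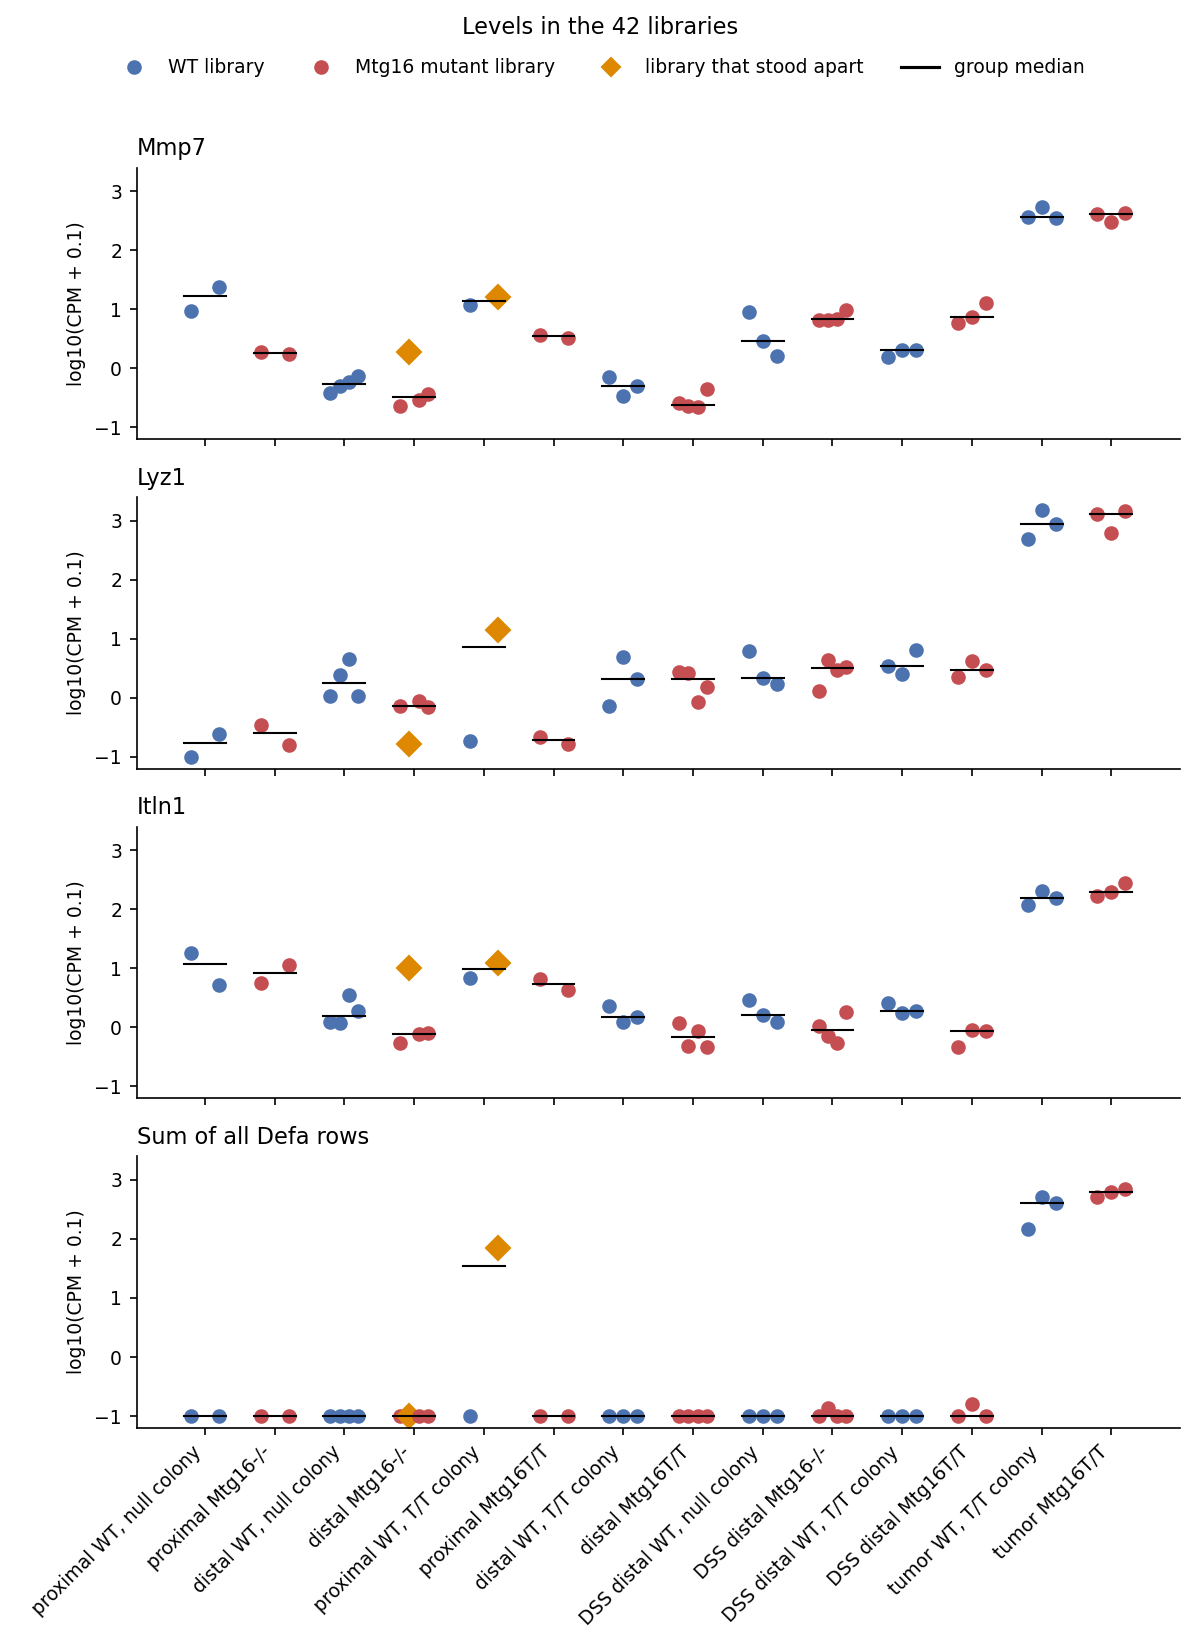
Log10 of CPM plus 0.1 of *Mmp7*, *Lyz1*, *Itln1* and the sum of *Defa* rows in all 42 libraries by group, with each library read from 1 of its tables and a line for each group's median. Tumors are highest for all 4, and the orange diamonds mark proximal WT replicate 2 of the T/T colony and the library labelled distal *Mtg16-/-* replicate 2.

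*Mmp7* ordered the crypt groups by segment and by injury. Its median CPM was 414 in *Mtg16T/T* and 373 in WT tumors, then 16.8 and 13.9 in the proximal WT groups, 7.39 and 6.66 in *Mtg16T/T* and *Mtg16-/-* crypts after DSS, 3.39 in proximal *Mtg16T/T*, 2.79 and 1.94 in WT crypts after DSS, 1.73 in proximal *Mtg16-/-*, and 0.451, 0.413, 0.231 and 0.143 in distal baseline WT (null colony), WT (T/T colony), *Mtg16-/-* and *Mtg16T/T*. Neighbouring groups in this order overlapped except between WT tumors and proximal WT crypts, between *Mtg16-/-* crypts after DSS and proximal *Mtg16T/T*, and between proximal *Mtg16-/-* and distal WT crypts. *Itln1* shared the place of tumors and proximal crypts at the top but not the rise after DSS, with a median of 1.84 in WT and 0.759 in *Mtg16T/T* crypts after DSS. *Lyz1* had another order in crypts, with medians of 0.0718 to 0.157 CPM in 3 of the 4 proximal groups and 0.619 to 3.38 in the distal ones.

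Between WT segments, *Mmp7* had 401, 1149, 544 and 729 normalized counts in the 4 proximal libraries and 10.5 to 29.5 in the 7 distal ones, a log2 difference of -5.07 from proximal to distal. *Itln1* had 245 to 780 in proximal and 48.5 to 153 in distal crypts, a difference of -2.59. *Lyz1* went the other way in 3 of 4 proximal libraries, with 0, 6.79 and 4.14 against 26.7 to 214 in distal crypts, while the proximal library with defensins had 647. These values include the library that entered the choice of most of the genes and carry no test here. limma called 42.1% of all genes between segments.

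In proximal crypts the mutants had less *Mmp7* than their WT littermates in both colonies. WT libraries of the null colony had 433 and 1225 normalized counts and *Mtg16-/-* libraries 86.1 and 82.8, a log2 difference of -3.09 (SE 0.459). In the T/T colony, *Mmp7* was 529 and 701 in WT and 161 and 141 in *Mtg16T/T*, a difference of -2.01 (SE 0.192). The genotypes did not overlap in either colony. *Itln1* overlapped in the null colony, with 841 and 262 in WT and 266 and 558 in *Mtg16-/-*, and *Lyz1* was below the filter there. limma called 0.0645% of all genes in the null colony. limma passed 1 of the 9 members tested in the T/T colony (*Mmp7*, lower), where 0.0944% of all genes were called lower. Nothing is read from this call, because it rests on 2 libraries per group. The table also holds the WT library that entered the choice of the members other than *Mmp7* and *Itln1*. Without that WT library the difference was -1.81. Goblet genes summed to 10700 to 12700 CPM in *Mtg16-/-* and 6930 to 8050 in WT of the null colony. In the T/T colony they summed to 7720 to 8160 in *Mtg16T/T* and 6340 to 6750 in WT. The median log2 difference over the 8 goblet genes tested was -0.163 in the null and -0.295 in the T/T colony, so single genes did not all follow the sums. The part of these cells in the *Mmp7* differences was not tested.

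In distal crypts at baseline none of the 3 tested members passed in either colony. For *Mtg16-/-* against WT, where limma called 0.239% of 13831 genes, *Lyz1* had 45.9, 105, 199 and 46.9 normalized counts in WT and 29.0, 3.14, 34.1 and 27.8 in *Mtg16-/-*. The groups did not overlap, and the log2 difference was -2.14 (SE 0.765, unadjusted p = 0.0215, adjusted p = 0.77, limma with Benjamini-Hochberg adjustment). The value of 3.14 is the library labelled distal *Mtg16-/-* replicate 2, and without it the difference was -1.42 (adjusted p = 0.501). *Itln1* had 52.4, 49.8, 157 and 86.4 in WT and 20.9, 453, 29.4 and 32.7 in *Mtg16-/-*, and *Mmp7* 13.1, 18.5, 22.0 and 30.2 and then 5.80, 80.6, 8.53 and 12.3. The same library gave the 453 and the 80.6, each the highest of all 8. Without it *Itln1* differed by -1.47 (adjusted p = 0.253) and *Mmp7* by -1.15 (adjusted p = 0.512) in limma. Of the 3 members, 1 had an unadjusted p under 0.05 in limma (*Lyz1*). With all libraries edgeR, which called 0.21% of genes, passed 0 of the 3. DESeq2, which called 1.41%, passed neither *Lyz1* nor *Mmp7* and gave no p for *Itln1*. In DESeq2 without the library labelled distal *Mtg16-/-* replicate 2, a fit added after the data were seen that called 1.89% of genes, *Itln1* (-1.65, adjusted p = 0.0166) and *Lyz1* (-1.72, adjusted p = 0.036) were both lower in *Mtg16-/-*.

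For distal *Mtg16T/T* against WT, where limma called 0.0369% of 13535 genes, *Itln1* had 86.6, 46.0 and 58.6 normalized counts in WT and 41.5, 15.3, 31.5 and 15.3 in *Mtg16T/T*. All 4 mutant libraries were below the 3 WT libraries, with a log2 difference of -1.35 (SE 0.421, adjusted p = 0.863 in limma). *Mmp7* had 24.0, 9.80 and 17.04 in WT and 5.93, 5.10, 4.77 and 14.3 in *Mtg16T/T* (-1.12, adjusted p = 0.863 in limma). *Lyz1* differed by -0.19 with wide overlap. *Itln1* and *Mmp7* were the 2 members with an unadjusted p under 0.05 in limma (0.0141 and 0.0472), and edgeR and DESeq2, which called 0.0369% and 0.311% of genes, passed 0 of the 3. Goblet genes summed to 14300 to 16600 CPM in *Mtg16T/T* and 11000 to 13700 in WT, without overlap. Of 8 goblet genes, DESeq2 called *Fcgbp* and *Tff3* higher and 0 lower, and limma and edgeR called 0. The part of goblet cells in these differences was not tested.

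After DSS, *Mmp7* was higher than at baseline in the WT crypts of the T/T colony. It rose from 27.9, 11.2 and 19.7 normalized counts at baseline to 70.8, 96.1 and 92.2, a log2 difference of 2.16 (SE 0.368, adjusted p = 0.0118, limma with Benjamini-Hochberg adjustment) without overlap. It was the 1 member higher of 3 tested, where limma called 14.0% of 13566 genes higher. It passed in edgeR (adjusted p = 0.0138) and DESeq2 (adjusted p = 8.72e-07) too, which called 32.2% and 39.3% of genes in either direction, whereas the 14.0% counts higher genes only. Of the 6 libraries, 2 ended the call when left out: without DSS WT replicate 1 the adjusted p in limma was 0.0514, and without distal WT replicate 2 it was 0.0535, with differences of 2.29 and 1.83. *Itln1* (0.42, adjusted p = 0.303 in limma) and *Lyz1* (1.08, adjusted p = 0.275) did not pass. The library codes of baseline crypts open with 5094 and those after DSS with 5740, and what differs between these sets, which the labels do not say, cannot be told apart from the injury.

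One limma fit of the 28 distal crypt libraries on recovered reads, added after the data were seen, gave the change from baseline to DSS in each genotype. *Mmp7* rose in each: by 2.18 in WT (adjusted p = 0.013) and 5.45 in *Mtg16T/T* (8.2e-06) of the T/T colony, and by 2.89 in WT (0.00602) and 4.38 in *Mtg16-/-* (6.72e-06) of the null colony. Without the library labelled distal *Mtg16-/-* replicate 2 the rise in *Mtg16-/-* was 5.16 (adjusted p = 3.95e-08). The share of all genes called in these 4 contrasts was 40.0%, 13.8%, 4.69% and 25.6%. Each contrast also sets library codes apart. In the T/T colony they open with 5094 at baseline and 5740 after DSS. In the null colony they open with 4149 or 5094 at baseline and 6217 after DSS. What differs between these sets cannot be told apart from the injury. The genotype difference of *Mmp7* was larger after DSS than at baseline by 3.26 (SE 0.918, adjusted p = 0.239, where 0.0497% of genes were called) in the T/T colony. Without the library labelled distal *Mtg16-/-* replicate 2, which enters through the shared spread, it was larger by 3.27 with adjusted p = 0.0478, where 0.192% of genes were called. In the null colony the same difference was 1.5 (adjusted p = 1.0) with the library and 2.27 (adjusted p = 0.233) without it, where 0.0142% and 0.114% of genes were called. *Lyz1* rose in *Mtg16-/-* (2.72, adjusted p = 0.00597, or 1.98 and 0.0237 without that library, where 26.3% of genes were called), and *Itln1* passed in none of these contrasts.

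Between genotypes after DSS, *Mmp7* had 76.9, 104 and 97.4 normalized counts in WT and 271, 365 and 645 in *Mtg16T/T* crypts. All 3 mutant libraries were above the 3 WT libraries, with means of 92.6 ± 14.0 and 427 ± 195 (SD, n = 3 each) and a log2 difference of 2.11 (SE 0.367). It did not pass in limma (adjusted p = 0.172) or edgeR (adjusted p = 0.192), which called 0.0% of 13648 genes each (1197 and 1205 had an unadjusted p under 0.05), and passed in DESeq2 (2.21, adjusted p = 3.26e-05), which called 2.04%. *Itln1* had the opposite order, with 130, 89.2 and 92.2 in WT and 17.2, 40.1 and 39.1 in *Mtg16T/T*, a log2 difference of -1.73 (SE 0.413) without overlap. It too passed in DESeq2 (-1.70, adjusted p = 0.0113) and not in limma (adjusted p = 0.262). *Lyz1*, with 178, 133 and 321 against 103, 200 and 147, overlapped (-0.44).

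In the null colony after DSS, *Mmp7* had 506, 155 and 83.9 normalized counts in WT and 372, 345, 380 and 556 in *Mtg16-/-* crypts. WT replicate 1 lay among the mutants, and the difference was 1.11 (SE 0.507, adjusted p = 0.423, limma with Benjamini-Hochberg adjustment, which called 0.629% of 14476 genes and 0 of the 3 members, also at an unadjusted p under 0.05). edgeR and DESeq2, which called 0.601% and 4.91% of genes, passed 0 of the 3 as well. Without that library it was 1.82 (adjusted p = 0.0488). *Itln1* had 164, 84.0 and 62.0 in WT and 54.3, 33.1, 24.5 and 101 in *Mtg16-/-*, a difference of -1.03 (SE 0.514, adjusted p = 0.473 in limma). In this comparison libraries with the same replicate number deviated together, though no label pairs them. With the replicate number as a block the difference of *Itln1* was -1.40 (SE 0.264, adjusted p = 0.0138 in limma, which then called 8.78% of genes). The libraries were treated as pairs because of these same values, so this p may be too small. *Lyz1* differed by -0.07 with overlap. The genotype difference of *Mmp7* after DSS was 1.02 smaller in the null than in the T/T colony (adjusted p = 0.64 in the joint limma fit, which called 0.0071% of genes), which does not show that the colonies act alike.

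**Figure D5:**
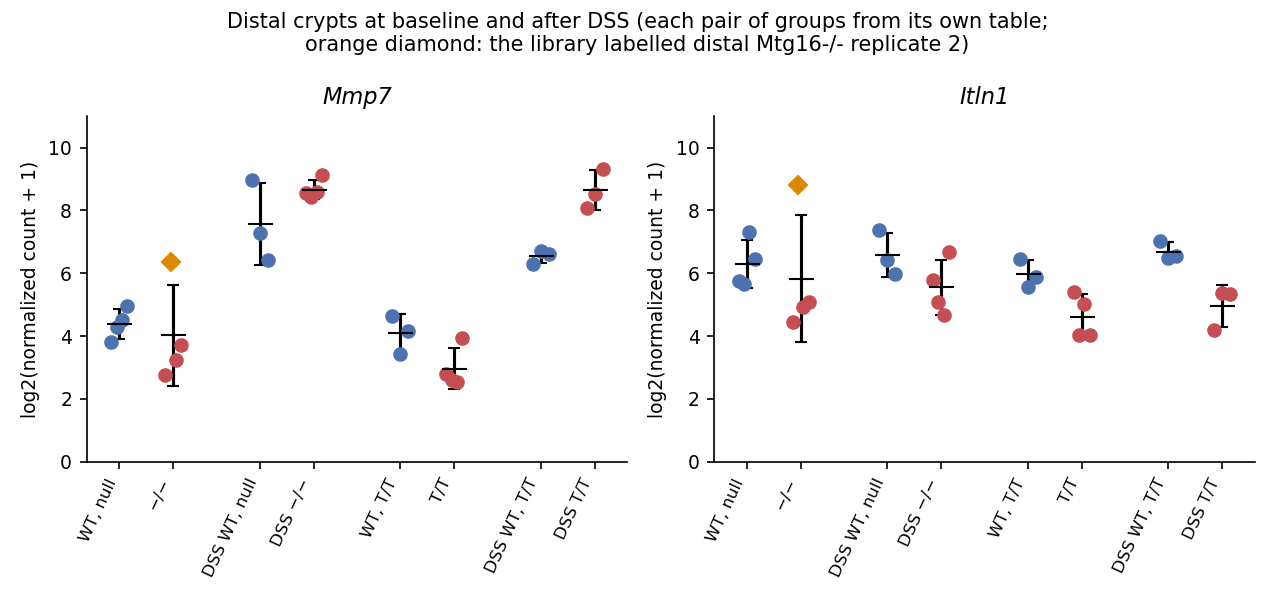
Log2 of the normalized count plus 1 of *Mmp7* and *Itln1* in distal WT (blue) and mutant (red) crypts at baseline and after DSS, with points for libraries, a bar for the mean and whiskers for 1 SD. After DSS all *Mtg16T/T* libraries lie above WT for *Mmp7* and below WT for *Itln1*, and the orange diamond is the library labelled distal *Mtg16-/-* replicate 2.

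Markers of other cells moved with some of these values. After DSS, macrophage genes summed to 201 to 365 CPM in *Mtg16-/-* and 164 to 224 in WT crypts, and neutrophil genes to 84.8 to 293 and 25.0 to 55.8. From baseline to DSS in WT crypts of the T/T colony, goblet genes summed to 11000 to 13700 CPM at baseline and 21100 to 23700 after DSS, and fibroblast genes to 0.947 to 2.38 and 2.97 to 7.34. The ranges overlapped for macrophage (129 to 163 and 155 to 170) and neutrophil genes (10.3 to 15.2 and 9.17 to 17.7). Single genes of these lists were called higher there, *Col3a1* and *Col1a1*, *S100a9*, *Csf1r* and *C1qa*. In *Mtg16-/-* distal crypts, where *Lyz1* rose from baseline to DSS, *Lyz2*, its near copy of macrophages, went from 2.97 ± 1.95 to 52.9 ± 31.6 CPM (mean ± SD, n = 4 each) while *Lyz1* went from 0.521 ± 0.311 to 2.90 ± 1.25. The neutrophil sums there were 2.50 to 16.9 and then 84.8 to 293, and the macrophage sums 56.1 to 189 and then 201 to 365, without overlap. In the T/T colony after DSS the neutrophil sums were 31.9 to 45.7 in *Mtg16T/T* and 9.17 to 17.7 in WT, and the macrophage sums 146 to 242 and 155 to 170. The goblet sums were 13600 to 14400 in *Mtg16T/T* and 21100 to 23700 in WT. The part of these cells in the differences of *Lyz1*, *Mmp7* and *Itln1*, between genotypes or after DSS, was not tested.

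The Paneth products that are not members and the regulators come from lists drawn up with earlier results known. After DSS in *Mtg16-/-* crypts, 1 of 10 such products tested was called higher (*Ang4*, 5.17, adjusted p = 0.00113 in limma) and none lower, where limma called 0.629% of all genes, and 1 of 17 regulators was called lower (*Atoh1*, the bHLH factor that starts the secretory lineage, -1.16, adjusted p = 0.0165). With the replicate block, which called 8.78% of genes, 3 products were higher (*Ang4*, *Reg3b* and *Reg3g*) and 2 regulators lower (*Atoh1* and *Kit*). Without the block the median log2 difference was 0.20 over these products and 0.003 over the regulators, against -0.002 over all genes. In *Mtg16T/T* after DSS and in both distal baseline comparisons limma and edgeR called 0 of either list. DESeq2, which called more genes in each, did call some. In distal *Mtg16-/-* crypts at baseline *Ang4* (3.23, adjusted p = 0.0268 in DESeq2) and *Habp2* (5.98, adjusted p = 0.023) were higher and *Clps* and *Atoh1* lower. Without the library labelled distal *Mtg16-/-* replicate 2, DESeq2 called neither *Ang4* nor *Habp2*, while *Clps* and *Atoh1* stayed called. In distal *Mtg16T/T* crypts at baseline DESeq2 called *Reg3b* and *Reg3g* lower and *Dll1* higher, and after DSS it called *Reg3b* and *Reg3g* higher and *Clps*, *Spink4*, *Atoh1* and *Kit* lower. In WT crypts after DSS, where limma called 14.0% of all genes higher, 2 of the 10 products were higher (*Spink4* and *Clps*) and 8 of 16 regulators (among them *Bhlha15*, *Spdef*, *Ephb2* and *Sox9*), with medians of 0.88 and 0.59, against 0.004 over all genes. Of 8 goblet genes, 5 were called higher in the same comparison, among them *Spdef* and *Atoh1*, which are also among the 8 regulators.

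Across all 42 libraries, the genes most like *Mmp7* by the correlation of log2 shares over 13800 genes were *Tubb2b* (r = 0.961), *Tnfrsf23* (0.960), *Ttc7b* (0.958), *Lgmn* (0.945) and *Sema7a* (0.938). Without the 6 tumors these were between 0.806 and 0.910, so the likeness was also there among the 36 crypt libraries. For *Lyz1* the 5 nearest genes were *Slc20a2* (0.947), *Msantd3*, *Igfbp4*, *Igsf11* and *Dtx4*, and without tumors they were between 0.671 and 0.716. For the sum of *Defa* rows the nearest were *Cfi* (0.950), *Onecut2*, *Mapk4*, *Slc30a2* and *Tril*, with 0.316 to 0.452 without tumors and -0.161 to 0.331 when the proximal library was also left out. These points share libraries, depth and tissue, so the values describe the pattern and carry no p.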

How the data were processed

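Total RNA of mouse colon crypts and AOM/DSS tumors was sequenced after poly(A) selection. The authors trimmed reads with fastp 0.20.0, quantified them with Salmon 1.3.0 against GENCODE vM21 (GRCm38, mm10), summed them per gene with tximeta and divided them by DESeq2 1.26.0 size factors in R 3.6.3. The signal values that the authors deposited are these normalized counts, in 9 tables with 59 library columns, each scaled on its own libraries. The authors' fold changes, p-values and mean column were not used. For 7 of the tables, 100.0% of values were whole reads within 0.1 read once a per-library step was found. The 2 proximal mutant tables gave none, so edgeR and DESeq2 were not run there. Nor were they run on the tumors or between WT segments, which are described only. Normalized totals ran from 37935949 to 57551660.4 per library.

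Here log2(normalized count + 1) was compared with limma 3.58.1 (trend) in R 4.3.3 for genes with a mean of at least 10, with Benjamini-Hochberg adjustment over all genes and a threshold of 0.05. Fold changes on this scale understate those of low genes. The alternatives were DESeq2 1.42.0 and edgeR 4.0.16 run on the recovered reads, a replicate block, leaving out each library, pseudocounts of 0.1 and 10, no filter, and fits within libraries whose codes open with the same number. The methods were checked on simulated data. The floor is 3 reads of a library, and it covers counting error only. No label says which libraries share a mouse, so p-values measure the spread between these libraries.

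The 9 genes and all lists were chosen with earlier results of these data known. Named genes are the members, the genes of fixed lists, *Defa43* and *Lyz2*, *Mptx1*, *Ang4* and *Habp2* as relatives or Paneth products, and the 5 genes most like *Mmp7*, *Lyz1* and the *Defa* sum; other defensin rows were named after their values were seen. The proximal *Mtg16T/T* comparison had been planned as a test and is described only, as it holds the library that entered the choice of most of the genes. Pairing by replicate number was checked by the correlation of deviations from group means: after DSS in the null colony the 3 pairs had 0.554, 0.460 and 0.317, which were treated as pairs, and in no other comparison with 3 or more pairs were all above 0.1. Libraries that stand in several tables gave identical reads in each recovered one (16 pairs of columns). Single-cell, human and staining data were not used here.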

Additional observations from a re-analysis of the deposited data

Results flagged for a closer look

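In groups of 4 to 10 libraries, a value was picked out when its gap to the nearest other library exceeded Dixon's 95% critical share of the group's range (0.829 for 4 libraries, 0.568 for 7), which chance does in about 1 in 20 groups. In proximal WT replicate 2 of the T/T colony, among 4 proximal WT libraries, the gap was 0.990 of the range for *Lyz1* and 1.0 for *Mptx2*, for *Defa17*, *Defa21*, *Defa22*, *Defa24* and *Defa42* and for the sum of *Defa* rows. The genes were chosen by the high values of that library, so these gaps follow from the choice and the chance rate says nothing of them. In the library labelled distal *Mtg16-/-* replicate 2 it was 0.913 for *Mmp7* and 0.973 for *Itln1*, both high. Single genes stood out in distal *Mtg16T/T* replicate 4 (*Mmp7*, high, 0.878), in *Mtg16-/-* replicate 4 after DSS (*Mmp7*, high, 0.833) and in distal WT replicate 3 of the null colony among 7 distal WT libraries (*Itln1*, high, 0.579).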

How the results depend on the processing

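Of 479 recomputed values of single genes, 211 under other settings and 243 with 1 library left out kept their direction and their side of the threshold. Directions turned for genes that were called in neither fit. In distal *Mtg16-/-* against WT crypts, *Mmp7* was 0.33 in edgeR, 0.35 in DESeq2, 0.50 within the libraries whose codes open with 5094 and -1.15 to 0.045 with a library left out, and *Itln1* was 0.61 in edgeR and 0.94 within those libraries, which include the one labelled replicate 2. *Lyz1* ranged from -0.955 to 0.518 in distal *Mtg16T/T* crypts and from -0.472 to 0.53 in *Mtg16-/-* crypts after DSS when single libraries were left out. The *Defa* sum in tumors ranged from 0.4 (without WT replicate 1) to 1.27 with a library left out, an alternative added after the data were seen. *Defa42* in tumors was -9.18 with a pseudocount of 0.1 and -2.78 with 10. Counts of members called moved as follows, and the cause was not tested unless fewer libraries or genes were used. In proximal *Mtg16-/-* crypts the count was 0, and 0 to 1 with a library left out. In proximal *Mtg16T/T* crypts it was 1, and 0 to 0 with a library left out or 0 without the filter. In distal *Mtg16-/-* crypts it was 0, and 2 in DESeq2 without the library labelled replicate 2. In *Mtg16-/-* crypts after DSS it was 0, 0 to 1 with a library left out, and 1 with the replicate block (*Itln1*). In *Mtg16T/T* crypts after DSS it was 0, and 2 in DESeq2. In WT crypts after DSS against baseline it was 1, and 0 to 1 with a library left out. In the joint fit of distal crypts 0 members differed between genotype effects after DSS and at baseline in the T/T colony, and 1 (*Mmp7*) did without the library labelled distal *Mtg16-/-* replicate 2. The replicate block changed no other call of a member. With 3 or 4 libraries per group, differences such as those of *Mmp7* and *Itln1* in *Mtg16T/T* crypts after DSS lie where limma and DESeq2 part, and defensin levels below 3 reads per library could not be seen.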
